A study of Mus musculus with 9 samples.

Results

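The genes that carry antigen presentation were examined in RNA sequencing of whole mouse eyeballs. The set was given as 10 gene symbols, namely B2m, H2-K1, H2-D1, H2-Aa, H2-Ab1, H2-Eb1, Cd74, Tap1, Tap2 and Ciita. All 10 were found, by symbol, among the 22587 genes of the deposited tables, and no measured value entered the choice. Mice labelled T.chuii received intraperitoneal scopolamine and 300 mg/kg of Tetraselmis chuii, a green microalga, by mouth. Mice labelled DES received scopolamine and drank water, and those labelled CON had water with no injection. Each group had 3 libraries, and all were wild-type female BALB/C mice treated for 2 weeks from 6 weeks of age, with tissue taken at postnatal day 56. Scopolamine, a blocker of muscarinic receptors, lowers tear secretion and serves as a model of dry eye. The design asks what scopolamine does to the eyeball and what the alga adds in injected mice. The labels do not state whether the 3 libraries stem from separate mice, so p-values measure the spread between libraries, which may be technical.

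MHC class I molecules show peptides from inside the cell to CD8 T cells. Each is a heavy chain, such as those made by H2-K1 and H2-D1, bound to the light chain beta-2-microglobulin from B2m, and it takes its peptides from the TAP transporter, a dimer of Tap1 and Tap2 in the membrane of the endoplasmic reticulum. Class II molecules show peptides from outside the cell to CD4 T cells and are made of an alpha chain (H2-Aa) and a beta chain (H2-Ab1, or H2-Eb1 with the E alpha chain). The invariant chain, Cd74, fills their groove until they reach the compartment where peptides are loaded, and Ciita makes the coactivator that switches class II genes on. Interferons raise the genes of both arms. Class I is made by nearly all nucleated cells, whereas class II is made mainly by dendritic cells, macrophages and B cells. The eye is known for low MHC expression in the healthy retina and lens and for bone marrow derived class II cells in the cornea, limbus and uvea.

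Library totals lay between 39.1 and 64.6 M reads. The libraries differed in tissue make-up within groups. CON 2, DES 1 and T.chuii 1 had the highest summed level of 6 corneal epithelium markers, at 40740 CPM (read counts scaled to library size by trimmed means) in T.chuii 1, 44480 in DES 1 and 72760 in CON 2, against 10740 to 29140 in the other 6. The same 3 libraries had the lowest sums of 7 rod markers, at 7574, 13400 and 14330 CPM in T.chuii 1, DES 1 and CON 2, against 25430 to 33180 in the others. Markers of the lens summed to 11660 to 58360 CPM in T.chuii and 367 to 42960 CPM in DES, against 222 to 265 CPM in CON. All 3 adipocyte markers analysed here and all 7 fast muscle markers had their highest group mean in T.chuii. The results that rest on CON 2, DES 1 and T.chuii 1 are therefore given with and without them. In whole eyeballs, fewer cells of a type and less RNA per cell cannot be told apart.

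The genes of this set were placed on build GRCm38 (mm10), in the coordinates of the RefSeq gene table. H2-K1 (chr17:33996012-34000619), H2-D1 (chr17:35263094-35267497), H2-Aa (chr17:34282744-34287823), H2-Ab1 (chr17:34263227-34269418), H2-Eb1 (chr17:34305867-34316674), Tap1 (chr17:34187556-34197225) and Tap2 (chr17:34204479-34216321) share the MHC of chromosome 17, and the other 3 lie elsewhere. All 10 genes are protein-coding. Of the different 50-base stretches in their GENCODE protein-coding transcripts, 13.9% for H2-D1 and 6.87% for H2-K1 also occur in other genes. The leading ones were H2-Q1 at 6.68% for H2-D1 and H2-D1 at 5.43% for H2-K1. Reads in such stretches could have been given to either gene, and how far this shifted the levels was not measured. The share was 0.834% for Tap1 and 0.708% for Tap2, and no such stretch of the other 6 was shared. BALB/C mice carry the d haplotype of the MHC and mm10 is a C57BL/6 genome of the b haplotype, so reads of the polymorphic H2 genes were placed on alleles of another haplotype. Its part in the levels below was not tested.

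The promoters of H2-K1, H2-D1, Tap1, H2-Eb1 and B2m are shown here. RefSeq windows of build GRCm38.p6, from 250 bases before to 50 after the start of transcription, were held for 6 of the 10 genes. The window of H2-Aa was also held but is not printed, and none was held for Tap2. Capitals mark the Y box core CTGATTGG, the interferon response motif GAANNGAAA and the kappa B motif GGGATTCCC, each on either strand and none overlapping another. The Y box binds NF-Y, the interferon motif binds IRF factors and the kappa B motif binds NF-kappa B.
H2-K1, chr17:34000298-34000597, minus strand: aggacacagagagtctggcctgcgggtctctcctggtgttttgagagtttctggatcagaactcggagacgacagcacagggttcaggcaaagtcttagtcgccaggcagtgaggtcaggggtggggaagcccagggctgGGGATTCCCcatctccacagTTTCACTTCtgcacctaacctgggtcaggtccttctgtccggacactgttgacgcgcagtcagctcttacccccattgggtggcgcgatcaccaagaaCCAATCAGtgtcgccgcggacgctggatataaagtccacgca
H2-D1, chr17:35262844-35263143, plus strand: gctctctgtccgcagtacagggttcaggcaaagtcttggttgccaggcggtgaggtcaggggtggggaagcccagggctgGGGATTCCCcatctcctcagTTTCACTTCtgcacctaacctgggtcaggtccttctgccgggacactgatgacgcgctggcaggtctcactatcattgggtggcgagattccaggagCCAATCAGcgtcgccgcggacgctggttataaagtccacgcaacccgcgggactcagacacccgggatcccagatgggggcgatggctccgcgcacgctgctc
Tap1, chr17:34187306-34187605, plus strand: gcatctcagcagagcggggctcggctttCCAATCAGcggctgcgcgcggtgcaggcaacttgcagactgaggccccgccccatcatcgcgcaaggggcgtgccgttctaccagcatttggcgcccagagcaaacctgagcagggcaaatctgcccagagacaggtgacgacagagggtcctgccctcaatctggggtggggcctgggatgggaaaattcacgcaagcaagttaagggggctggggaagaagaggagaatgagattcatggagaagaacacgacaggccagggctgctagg
H2-Eb1, chr17:34305617-34305916, plus strand: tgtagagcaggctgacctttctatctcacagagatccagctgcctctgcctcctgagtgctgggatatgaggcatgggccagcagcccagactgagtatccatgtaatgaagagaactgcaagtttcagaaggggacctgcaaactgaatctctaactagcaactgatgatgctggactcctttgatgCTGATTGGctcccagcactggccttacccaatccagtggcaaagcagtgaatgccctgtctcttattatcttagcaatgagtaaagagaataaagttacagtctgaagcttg
B2m, chr2:122147437-122147736, plus strand: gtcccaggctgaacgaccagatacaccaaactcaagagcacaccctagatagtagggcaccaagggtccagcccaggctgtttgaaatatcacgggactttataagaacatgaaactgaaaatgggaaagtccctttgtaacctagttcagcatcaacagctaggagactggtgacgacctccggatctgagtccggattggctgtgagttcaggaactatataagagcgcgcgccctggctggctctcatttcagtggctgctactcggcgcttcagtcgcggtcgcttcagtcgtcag
The windows of H2-K1 and H2-D1 each hold all 3 motifs in the same order. In H2-D1 the kappa B motif begins at position -170 from the start, the interferon motif at -150 and the Y box core at -53. In H2-K1, whose table entry gives 2 starts of which the upper one is used here, they begin at -110, -90 and 9. The Y box core is the only one of the 3 in H2-Eb1, at -62, in Tap1, at -222, and in the window of H2-Aa, at -51. None of the 3, as spelled here, occurs in the B2m window. Other spellings were not searched, so that window may still hold sites for the same factors. Its letters include gaaactgaaa, where GAA and GAAA stand further apart than in the interferon motif searched. They also include gattgg, the letters with which the Y box core ends. Over all 32851 windows in the table, 4.1% hold the Y box core, 7.52% the interferon motif and 0.353% the kappa B motif. The shorter CRE-like motif TGACG, left in lower case, occurs in 20.8% of all windows. It was found in all of these windows but that of H2-Eb1, with 2 matches in B2m and 2 overlapping matches in H2-Aa. Such matches describe letters and were not tested as sites, and their part in the library patterns below was not tested.

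Outside the MHC, B2m lies at chr2:122147687-122153082, Cd74 at chr18:60803849-60812652 and Ciita at chr16:10480014-10531064. B2m overlaps Patl2, Cd74 overlaps the microRNA gene Mir5107, and Ciita overlaps Dexi and the long non-coding RNA LOC115488669, so reads in the shared stretches could have been given to either gene. Levels between genes were compared per transcript length, as the deposited FPKM over all 9 libraries. B2m was the most abundant with a median of 369.5 FPKM (202 to 623), followed by H2-D1 at 128 (82.9 to 256), H2-K1 at 36.2 (25.0 to 61.9) and Cd74 at 31.4 (23.2 to 41.8). H2-Ab1 at 14.0 (12.1 to 16.7), H2-Aa at 13.9 (10.6 to 16.3), Tap2 at 11.8 (7.76 to 27.1), H2-Eb1 at 7.37 (5.21 to 10.7) and Tap1 at 5.47 FPKM (2.80 to 17.2) came next. Ciita was far lower, at 0.0993 FPKM (0.0548 to 0.124), from 21 to 65 reads a library. The order has 3 gaps where the ranges of neighbours did not overlap, between H2-D1 and H2-K1, between Cd74 and H2-Ab1, and between Tap1 and Ciita. B2m lay above H2-D1 in 8 of 9 libraries, and H2-K1 above Cd74 in 5 of 9. H2-Ab1 and H2-Aa overlapped and were in that order in 7 of 9 libraries. Both class I heavy chains thus had a higher median FPKM than any class II chain.

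**Figure D1:**
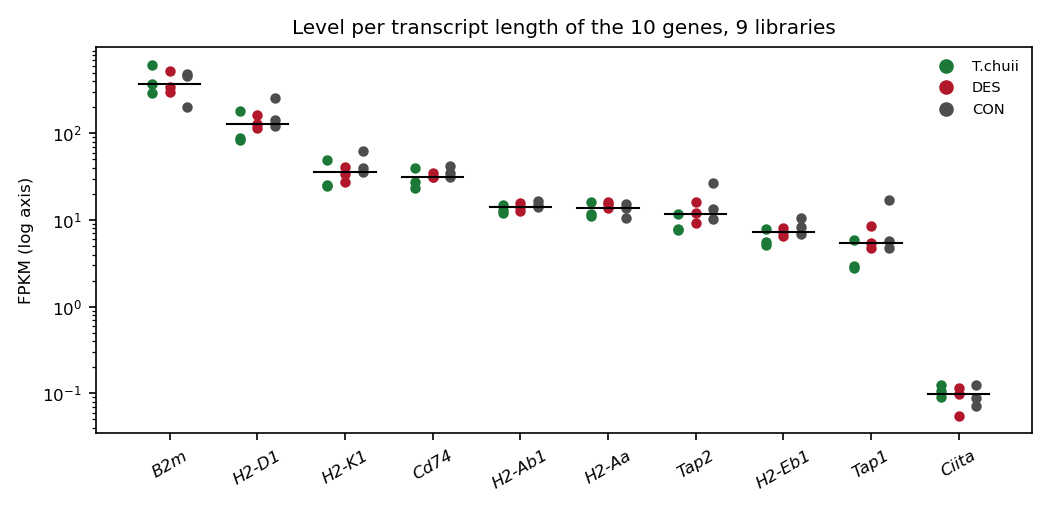
FPKM of the 10 genes in each of 9 libraries on a log axis, with the genes in order of their median (black line) and T.chuii, DES and CON side by side (3 points each). The medians run from 369.5 FPKM for B2m to 0.0993 FPKM for Ciita, and the groups overlap for each of the 10 genes.

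B2m, the class I light chain, had 622, 275 and 313 CPM in the T.chuii libraries, 324, 240 and 541 CPM in DES and 398, 198 and 387 CPM in CON. T.chuii 1 and DES 3 were highest and CON 2 was lowest, so that each group held both high and low libraries. The means were 403 ± 191 CPM in T.chuii, 369 ± 155 in DES and 328 ± 113 in CON (SD, n = 3 each). The log2 fold change was 0.10 ± 0.41 (SE) for T.chuii vs DES, 0.17 ± 0.41 for DES vs CON and 0.27 ± 0.41 for T.chuii vs CON. All 3 estimates were smaller than their standard errors.

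The class I heavy chains had another pattern across the same libraries. H2-D1 had 362, 159 and 153 CPM in T.chuii, 313, 204 and 236 CPM in DES and 201, 507 and 243 CPM in CON. H2-K1 had 109, 52.9 and 47.5 CPM in T.chuii, 85.2, 60.2 and 62.3 CPM in DES and 61.8, 131 and 74.0 CPM in CON. For both genes CON 2 was highest, followed by T.chuii 1 and DES 1, and T.chuii 3 was lowest, with all groups overlapping. H2-D1 averaged 225 ± 119 CPM in T.chuii, 251 ± 55.8 in DES and 317 ± 166 in CON. H2-K1 averaged 69.7 ± 33.9 CPM in T.chuii, 69.2 ± 13.9 in DES and 89.0 ± 37.0 in CON. The log2 fold change of H2-D1 was -0.25 ± 0.41 for T.chuii vs DES, -0.23 ± 0.41 for DES vs CON and -0.48 ± 0.41 for T.chuii vs CON. For H2-K1 these were -0.08 ± 0.36, -0.30 ± 0.36 and -0.37 ± 0.36. None came near the threshold of an adjusted p of 0.05, the lowest adjusted p by limma-voom being 0.986.

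Reads of H2-K1 stood in a nearly fixed proportion to those of H2-D1, between 0.259 in CON 2 and 0.333 in T.chuii 2, a 1.29-fold span. Reads of B2m did not. The B2m to H2-D1 read ratio was 1.72, 1.73 and 2.04 in T.chuii, 1.04, 1.18 and 2.29 in DES and 1.98, 0.390 and 1.60 in CON, a 5.88-fold span. The low end was CON 2, where H2-D1 was at its highest and B2m at its lowest. Over the 9 libraries log2 CPM of H2-K1 and H2-D1 had a Pearson r of 0.99, and B2m and H2-D1 one of -0.02. Over the 6 libraries other than CON 2, DES 1 and T.chuii 1 these were 0.93 and 0.60. The correlations are descriptive, and the genes compared share library, depth and tissue make-up.

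The transporter genes had the widest spans, the highest library being 6.70 times the lowest for Tap1 and 3.94 times for Tap2. Tap1 had 20.4, 9.14 and 8.62 CPM in T.chuii, 28.2, 14.9 and 16.7 CPM in DES and 16.1, 57.8 and 13.8 CPM in CON. Tap2 had 34.2, 21.4 and 19.5 CPM in T.chuii, 44.8, 27.4 and 27.1 CPM in DES and 32.0, 76.7 and 24.9 CPM in CON. CON 2, DES 1 and T.chuii 1 were the highest libraries for both, and T.chuii 2 and 3 the lowest. Tap1 averaged 12.7 ± 6.66 CPM in T.chuii, 19.9 ± 7.21 in DES and 29.2 ± 24.8 in CON, where CON 2 alone lay above 16.1 CPM. Tap2 averaged 25.0 ± 8.0 CPM in T.chuii, 33.1 ± 10.1 in DES and 44.5 ± 28.1 in CON. Tap1 gave the largest estimates of the set, a log2 fold change of -1.03 ± 0.56 for T.chuii vs CON (95% interval -2.27 to 0.21, adjusted p = 0.986 by limma-voom). It was -0.72 ± 0.57 for T.chuii vs DES (adjusted p = 1 by limma-voom) and -0.30 ± 0.53 for DES vs CON. Tap2 gave -0.71 ± 0.41 for T.chuii vs CON, -0.42 ± 0.42 for T.chuii vs DES and -0.29 ± 0.41 for DES vs CON. Tap1 had 0.428 to 0.753 reads for each Tap2 read, lowest in T.chuii 2 and highest in CON 2.

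The class II chains were steadier. H2-Ab1 had 20.5, 17.0 and 14.3 CPM in T.chuii, 18.6, 17.2 and 17.9 CPM in DES and 16.1, 20.1 and 19.4 CPM in CON. Its highest library was 1.44 times its lowest, the narrowest span of the set, against a median of 2.41 times over all genes tested. H2-Aa, its alpha chain partner, had 21.0, 13.8 and 13.0 CPM in T.chuii, 17.5, 15.9 and 21.8 CPM in DES and 14.97, 13.6 and 17.1 CPM in CON. DES 3 and T.chuii 1 were highest for H2-Aa, and CON 2, which led for the class I heavy chains, was among the 2 lowest in H2-Aa after T.chuii 3. H2-Eb1 had 15.2, 10.2 and 8.59 CPM in T.chuii, 13.7, 12.3 and 13.1 CPM in DES and 11.2, 20.3 and 13.7 CPM in CON. Its library order was that of H2-D1 in all 9 libraries (Spearman rho 1.0) and not that of H2-Aa (rho 0.43). The contrast depended on CON 2, DES 1 and T.chuii 1. Pearson r of H2-Eb1 was 0.96 with H2-D1 and 0.32 with H2-Aa over 9 libraries, and without these 3 it was 0.95 with H2-D1 and 0.82 with H2-Aa. Reads of H2-Eb1 for each H2-Ab1 read lay between 0.6 and 0.741 in 8 libraries and reached 1.01 in CON 2. The log2 fold change of H2-Ab1 was -0.07 ± 0.21 for T.chuii vs DES, -0.05 ± 0.21 for DES vs CON and -0.12 ± 0.21 for T.chuii vs CON, with a 95% interval of -0.59 to 0.35 for the last. For H2-Aa these were -0.23 ± 0.25, 0.25 ± 0.25 and 0.03 ± 0.25, and for H2-Eb1 -0.25 ± 0.30, -0.18 ± 0.29 and -0.43 ± 0.29.

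Cd74, the invariant chain, had 60.3, 38.9 and 29.6 CPM in T.chuii, 45.2, 41.3 and 47.8 CPM in DES and 51.3, 46.4 and 44.2 CPM in CON. T.chuii held both the highest and the lowest library, and its spread (SD 15.8 CPM) was above that of DES (3.27) and CON (3.65). The log2 fold change was -0.12 ± 0.25 for T.chuii vs DES, -0.08 ± 0.25 for DES vs CON and -0.20 ± 0.25 for T.chuii vs CON. Ciita had 0.955, 1.22 and 0.756 CPM in T.chuii, 1.14, 0.809 and 0.580 CPM in DES and 0.783, 0.740 and 1.09 CPM in CON. Its highest library was T.chuii 2 and its lowest DES 3, and the groups overlapped. The log2 fold change was 0.22 ± 0.37 for T.chuii vs DES, -0.07 ± 0.37 for DES vs CON and 0.15 ± 0.37 for T.chuii vs CON.

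**Figure D2:**
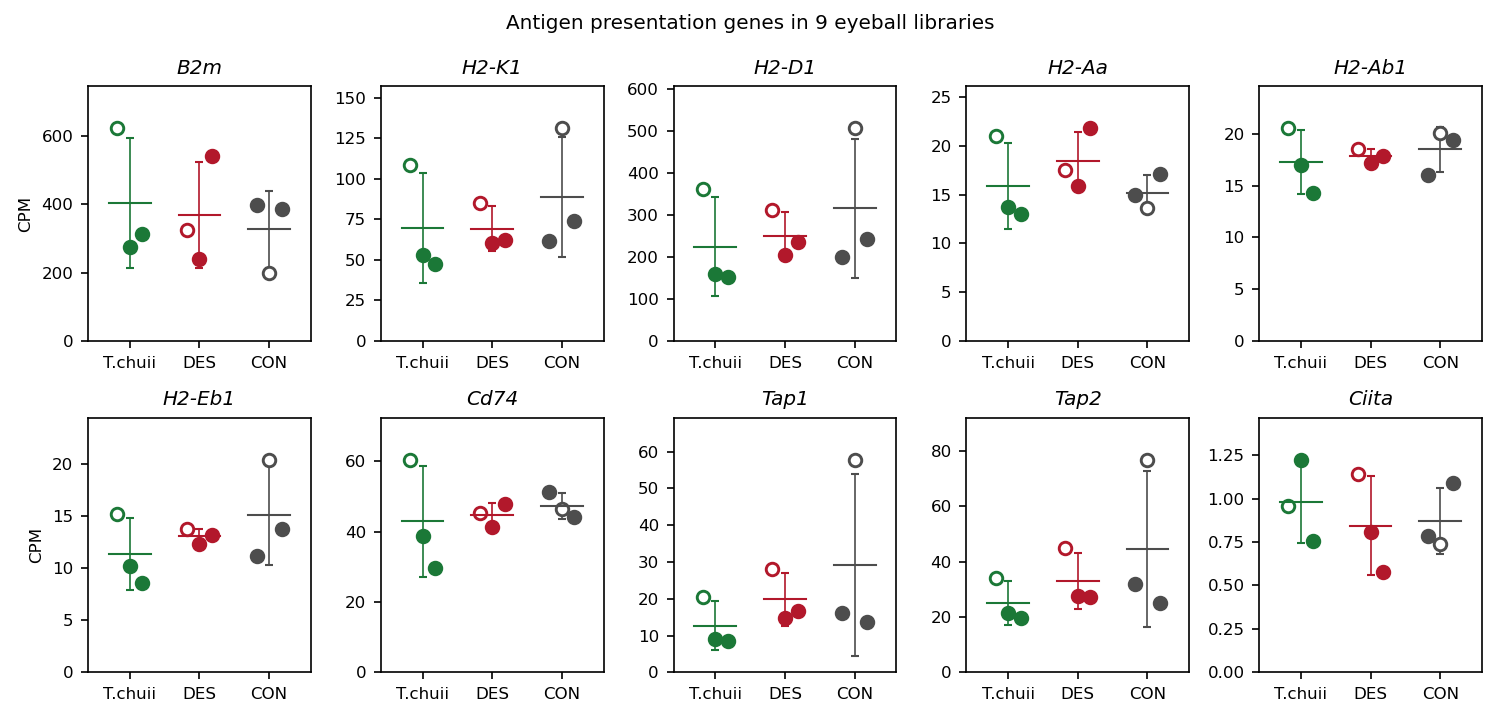
CPM of each of the 10 genes by library, with T.chuii, DES and CON side by side, each panel on its own axis from 0, a line at the mean and a bar of 1 SD (n = 3). Open circles are CON 2, DES 1 and T.chuii 1, which lie at the top of their groups for H2-K1, H2-D1, H2-Ab1, H2-Eb1, Tap1 and Tap2 but not for B2m, where CON 2 is the lowest of all.

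Read as a set, no gene of the 10 was called higher or lower in any comparison. Counted by the sign of the fitted log2 fold change, 2 genes were above 0 and 8 below 0 for T.chuii vs DES, with a median of -0.18 against -0.03 over all 21287 genes tested. For DES vs CON, 2 were above 0 and 8 below 0, with a median of -0.13 against -0.02. For T.chuii vs CON, 3 were above 0 and 7 below 0, with a median of -0.29 against -0.04. The fit works on the log scale, so its sign can differ from that of the CPM means where these are close, as for H2-K1 in T.chuii (69.7 CPM) and DES (69.2 CPM). By limma-voom with Benjamini-Hochberg adjustment, 0 of 10 passed in each comparison, and 0% of all genes did so. At an unadjusted p of 0.05, 0 of 10 passed in each, against 1.09% of all genes for T.chuii vs DES, 1.1% for DES vs CON and 4.28% for T.chuii vs CON. The groups overlapped for all 10 genes in all comparisons, whereas they did not overlap for 4.8% of all genes for T.chuii vs DES, 3.65% for DES vs CON and 8.42% for T.chuii vs CON. The comparisons share libraries, so their medians are not independent. Same-numbered DES and T.chuii libraries deviated together from their group means, but DES 2 and T.chuii 3 did so too (correlation 0.558 over genes). The titles state no pairing, and the file headers carry other numbers. Tap1 and Tap2 were lower in T.chuii than in DES at all 3 shared numbers. The share of all genes for which this held was not counted. In a fit added after the data were seen, the title number was a block in those 6 libraries. There Tap1 gave -0.69 ± 0.18 and Tap2 -0.41 ± 0.16 for T.chuii vs DES. These 2 of 10 genes passed at an unadjusted p of 0.05, against 6.05% of all genes, and 0 of 10 passed after adjustment (lowest adjusted p = 0.434 by limma-voom), against 0.00956% of all genes. The 95% interval of Tap1 reached down to -1.99 for T.chuii vs DES and -2.27 for T.chuii vs CON, and that of Tap2 to -1.35 and -1.63. The interval also passed a 2-fold change in at least 1 comparison for B2m, up to 1.18 for T.chuii vs CON, and for H2-D1, H2-K1 and H2-Eb1, down to -1.39, -1.18 and -1.08 for T.chuii vs CON. Ciita reached 1.04 for T.chuii vs DES, so that only the intervals of H2-Aa, H2-Ab1 and Cd74 stayed within 2-fold in all 3 comparisons.

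**Figure D3:**
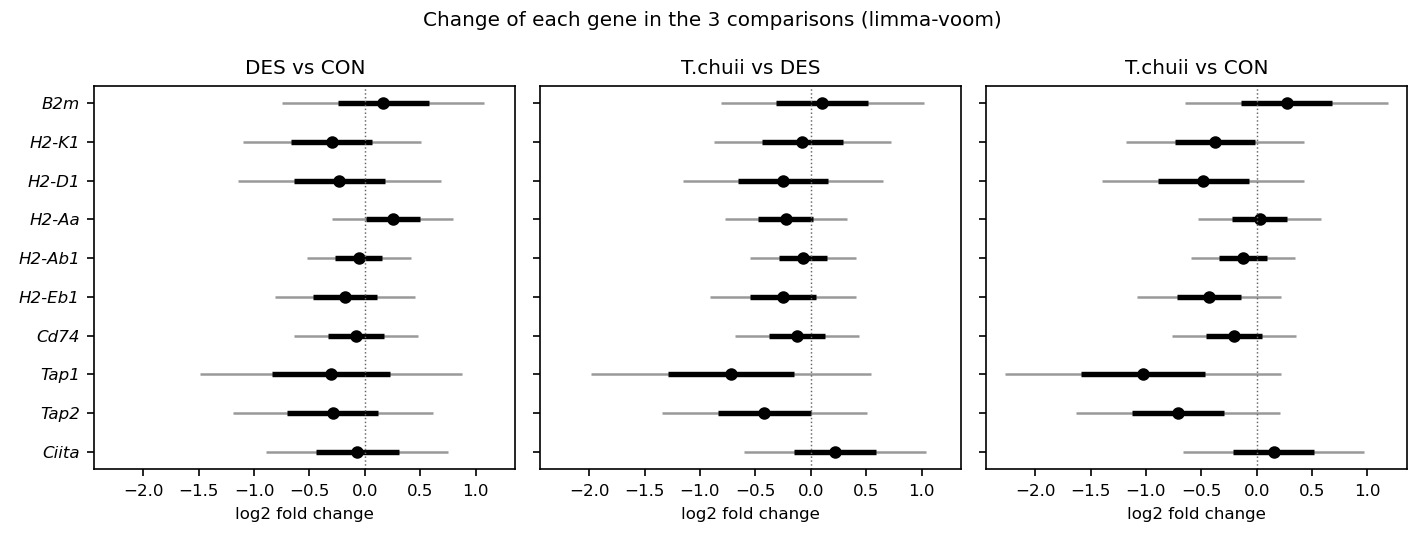
Log2 fold change of each gene in the 3 comparisons, from limma-voom with 9 libraries, with a thick bar for 1 SE and a thin bar for the 95% interval. Every thin bar crosses 0, the largest estimate being -1.03 for Tap1 in T.chuii vs CON.

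Much of the spread of these genes lay between libraries of the same group. CON 2, DES 1 and T.chuii 1 were the 3 highest libraries for H2-K1, H2-D1, H2-Eb1, Tap1 and Tap2, which is 5 of 10 genes, against 13.1% of all genes tested. For H2-Eb1, DES 1 (13.72 CPM) barely lay above CON 3 (13.69 CPM). The same 3 libraries were also highest for 9 of 13 other class I genes and for 6 of 13 genes of peptide supply and loading, but for 0 of 9 other class II genes. These are the libraries with the highest corneal epithelium sums and the lowest rod sums. Summed type I interferon targets were also highest there, at 994, 943 and 1274 CPM in T.chuii 1, DES 1 and CON 2, against 174 to 645 CPM in the others. Summed macrophage and microglia markers were highest in T.chuii 1 (511 CPM) and CON 2 (386 CPM), while DES 1 had 299.9 CPM within the range of 197 to 334 CPM of the others. Lyz2 made up 300 CPM of that sum in T.chuii 1 and 207 CPM in CON 2. The listed markers differed. Cd68 was also highest in T.chuii 1 and CON 2, but P2ry12 was lowest in CON 2, DES 1 and T.chuii 1 (4.25, 5.46 and 5.92 CPM). The part of these cells and interferon targets in the levels of the presentation genes was not tested. B2m, Cd74, H2-Aa and Ciita did not follow the corneal sums in CON 2, which had the highest corneal sum and the lowest B2m.

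**Figure D4:**
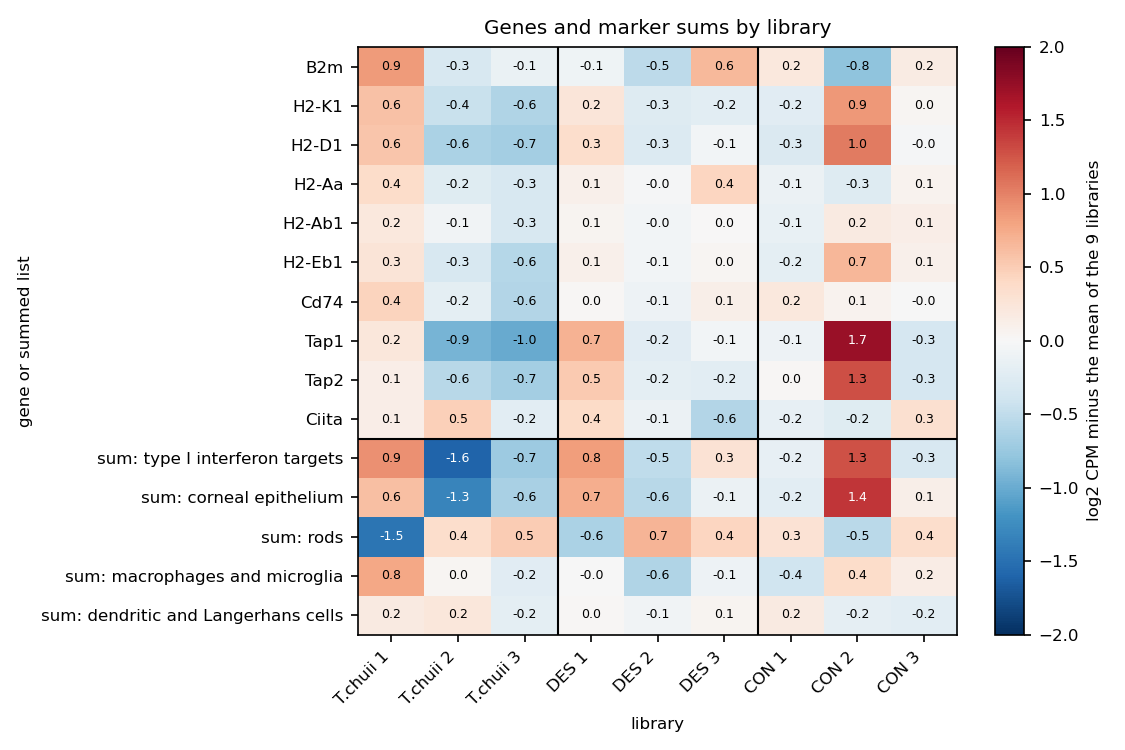
Log2 CPM minus the mean of the 9 libraries for the 10 genes (above the line) and for 5 summed lists (below it), with T.chuii, DES and CON libraries in columns from left to right. The heavy chains, H2-Eb1 and the Tap genes are red in T.chuii 1, DES 1 and CON 2, as are the sums of interferon targets and corneal epithelium, while the rod sum is blue there.

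Without these 3 libraries, 2 were left in each group. H2-D1 then had 159 and 153 CPM in T.chuii, 204 and 236 CPM in DES and 201 and 243 CPM in CON, and Tap1 had 9.14 and 8.62 CPM in T.chuii, 14.9 and 16.7 CPM in DES and 16.1 and 13.8 CPM in CON. Both T.chuii libraries were lower than both DES libraries for 8 of 10 genes, the exceptions being B2m and Ciita, against 13.5% of all genes. They were lower than both CON libraries for 8 of 10 genes, the exceptions being H2-Ab1 and Ciita, against 19% of all genes. The comparison of T.chuii with DES and that with CON share the T.chuii libraries. T.chuii 1 was the highest T.chuii library for each of the 10 genes but Ciita, so leaving it out lowered T.chuii for them. DES 1 was not the highest DES library for B2m, H2-Aa or Cd74. Over these 6 libraries Pearson r was 0.93 for H2-K1 with H2-D1 and 0.93 for Tap1 with Tap2. The 8 genes are therefore not separate results. In the fit without the 3 libraries Tap1 gave a log2 fold change of -0.82 ± 0.22 for T.chuii vs DES (adjusted p = 0.774 by limma-voom) and -0.76 ± 0.22 for T.chuii vs CON (adjusted p = 0.49). H2-D1 gave -0.50 ± 0.21 for T.chuii vs DES and -0.51 ± 0.21 for T.chuii vs CON. Of the 10 genes 0 passed after adjustment. At an unadjusted p of 0.05, Tap1 and H2-D1 passed for T.chuii vs DES, 2 of 10 against 5.53% of all genes. For T.chuii vs CON these 2 passed with Cd74, Tap2 and H2-K1, 5 of 10 against 6.27% of all genes. In the same libraries the corneal epithelium sums were 10740 and 17190 CPM in T.chuii, 18360 and 24870 CPM in DES and 23170 and 29140 CPM in CON, so they were ordered as H2-D1 was between T.chuii and the other groups, and their part in the difference was not tested. The choice of libraries to leave out was made with their marker sums known.

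**Figure D5:**
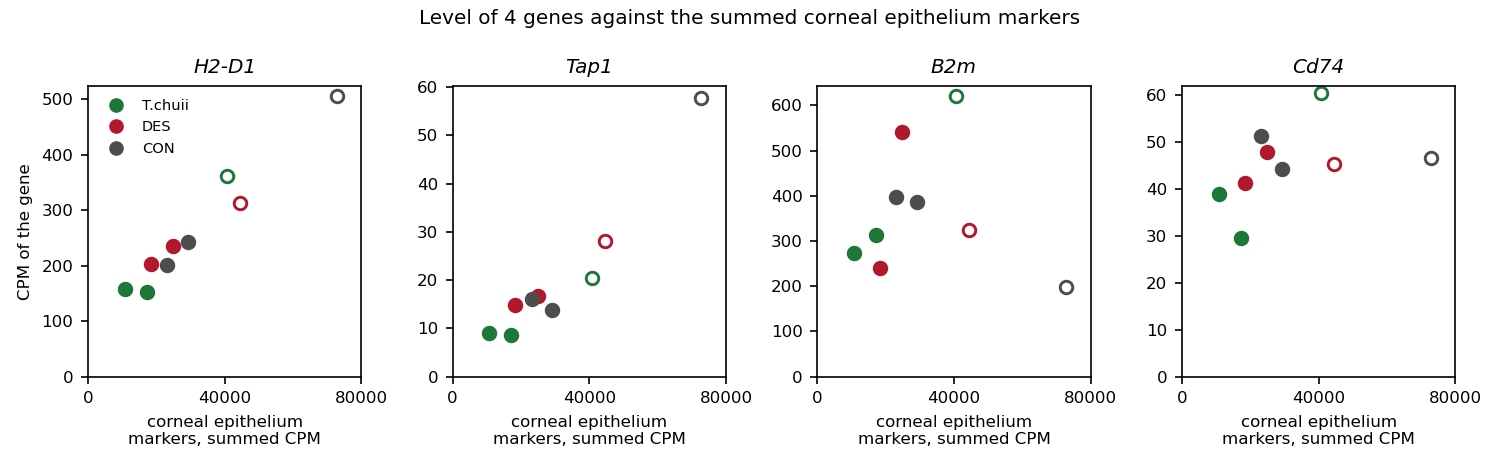
CPM of H2-D1, Tap1, B2m and Cd74 against the summed CPM of 6 corneal epithelium markers in 9 libraries, with T.chuii in green, DES in red, CON in grey and open circles for CON 2, DES 1 and T.chuii 1. H2-D1 and Tap1 are highest where the corneal sum is highest (507 and 57.8 CPM in CON 2), and B2m is lowest there (198 CPM).

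Other genes of the pathway were read from lists, none of which had a gene past the threshold in any comparison. Counts over these lists are of fitted log2 fold changes below 0, which need not have the sign of the difference in CPM means. Of the 13 other class I genes analysed here, 9 were below 0 for T.chuii vs DES, 9 for DES vs CON and 11 for T.chuii vs CON. H2-T23, the Qa-1 molecule read by NK cell receptors, averaged 47.0 ± 25.4 CPM in T.chuii, 61.9 ± 18.6 in DES and 80.7 ± 60.0 in CON. Cd1d1, which shows lipids to NKT cells, had the smallest p of this list for T.chuii vs CON and had a higher mean in T.chuii, with 8.19 ± 3.78 CPM in T.chuii, 4.96 ± 1.09 in DES and 4.60 ± 0.85 in CON (log2 fold change 0.73 ± 0.35, adjusted p = 0.986 by limma-voom). T.chuii 1 held its highest value, 12.5 CPM, and the highest macrophage marker sum.

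Of the 13 genes that supply and load class I peptides, 11 were below 0 for T.chuii vs DES, 11 for DES vs CON and 12 for T.chuii vs CON. Tapbp, tapasin, which bridges TAP and the heavy chain, averaged 135 ± 48.6 CPM in T.chuii, 156 ± 34.4 in DES and 198 ± 120 in CON, with 335 CPM in CON 2. Erap1, the aminopeptidase that trims peptides in the endoplasmic reticulum, averaged 20.6 ± 5.60 CPM in T.chuii, 24.8 ± 3.97 in DES and 26.3 ± 8.28 in CON. Nlrc5, the coactivator of class I genes, was low, at 0.932, 1.64 and 0.208 CPM in T.chuii, 0.622, 0.219 and 0.635 CPM in DES and 0.285, 0.499 and 0.235 CPM in CON. Its means were higher in T.chuii than in CON while those of the heavy chains were lower, and neither difference passed the test.

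Of 9 other class II genes analysed here, 5 were below 0 for T.chuii vs DES, 3 for DES vs CON and 6 for T.chuii vs CON. The E alpha gene, which pairs with H2-Eb1, is a pseudogene in C57BL/6 and is named H2-Ea-ps in the tables, whereas BALB/C mice make the E molecule. It had 24.3, 17.0 and 17.8 CPM in T.chuii, 22.7, 19.8 and 29.2 CPM in DES and 21.9, 17.6 and 21.0 CPM in CON. Like H2-Aa, it was highest in DES 3 and T.chuii 1 and low in CON 2. Ctss, cathepsin S, which removes the invariant chain, averaged 52.7 ± 16.6 CPM in T.chuii, 40.3 ± 11.3 in DES and 37.5 ± 5.77 in CON, with 71.8 CPM in T.chuii 1. H2-DMa, a chain of the peptide editor, averaged 7.46 ± 1.24 CPM in T.chuii, 6.72 ± 0.371 in DES and 7.56 ± 0.577 in CON.

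Among 12 regulators of MHC genes, 9 had a fitted log2 fold change below 0 for T.chuii vs DES, 9 for DES vs CON and 12 for T.chuii vs CON. Rfx5, a subunit of the RFX complex on class II promoters, had 8.60, 9.99 and 11.3 CPM in T.chuii, 11.8, 13.4 and 13.2 CPM in DES and 14.2, 13.2 and 11.4 CPM in CON. All T.chuii libraries were below all DES and all CON libraries for Rfx5, though T.chuii 3 (11.31 CPM) barely lay below CON 3 (11.36 CPM). Of all genes, 4.8% did not overlap for T.chuii vs DES and 8.42% for T.chuii vs CON. The log2 fold change of Rfx5 was -0.36 ± 0.22 against DES (adjusted p = 1 by limma-voom) and -0.37 ± 0.22 against CON (adjusted p = 0.986). Of 20 genes of the interferon gamma pathway, 15 were below 0 for T.chuii vs DES, 10 for DES vs CON and 13 for T.chuii vs CON. Of 20 type I interferon targets, 18 had a fitted log2 fold change below 0 for T.chuii vs DES (median -0.68), 14 for DES vs CON (median -0.07) and 20 for T.chuii vs CON (median -0.73). Their summed level in T.chuii 1, 994 CPM, was nonetheless the highest of the 6 libraries of injected mice. Of 6 co-stimulation genes, 5 were below 0 for T.chuii vs DES, 4 for DES vs CON and 6 for T.chuii vs CON. Icosl, the ICOS ligand, gave the smallest p of that list, with 4.60 ± 1.44 CPM in T.chuii, 7.17 ± 2.49 in DES and 10.1 ± 5.48 in CON.

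Markers of cells that carry class II were then summed. All 13 macrophage and microglia markers were analysed, and summed to 258 to 511 CPM in T.chuii, 197 to 299.9 CPM in DES and 229 to 386 CPM in CON. Lyz2 was the largest part of that sum in each library. Fitted log2 fold changes were above 0 for 11 of the 13 markers in T.chuii vs DES (median 0.32). This held for 2 in DES vs CON (median -0.26) and for 8 in T.chuii vs CON (median 0.14). Of 9 dendritic and Langerhans cell markers 5 were analysed here, summing to 8.32 to 11.2 CPM in T.chuii, 9.13 to 9.94 CPM in DES and 8.27 to 10.9 CPM in CON. Zbtb46 was the largest part of that sum in each library. Of these 5 markers, 3 were above 0 for T.chuii vs DES, 2 for DES vs CON and 3 for T.chuii vs CON. Cd79b, the one marker of B cells analysed here, lay between 0.213 and 1.09 CPM, and the 3 of 10 T and NK cell markers analysed here summed to 0.822 to 0.978 CPM. No marker was listed at 0, since the smallest count in any table was 1. Cd74 followed the macrophage sum at its extremes within T.chuii, being highest in T.chuii 1 and lowest in T.chuii 3 as that sum was. Within CON it did not, being highest in CON 1 (51.3 CPM), where that sum was lowest (229 CPM). Within DES both were lowest in DES 2, but Cd74 was highest in DES 3 and the sum in DES 1. The part of these cells in the class II levels was not tested.

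The genes most like the set in pattern were sought among 13160 genes with a mean of at least 5 CPM, by Pearson r over 9 libraries with the mean log2 CPM of a class. For class I (B2m, H2-K1 and H2-D1) these were Znhit1 (r 0.99), the pseudogenes Gm6736 and Gm6644 (0.98 each), Med8 (0.98) and Rarres1 (0.97). For class II (H2-Aa, H2-Ab1, H2-Eb1 and Cd74) they were Txnip (0.93), Znhit1 (0.92), Rbp2 (0.91), the long non-coding RNA Gm15987 (0.90) and Akr1b7 (0.90). Over the 6 libraries other than CON 2, DES 1 and T.chuii 1, r was 0.93 to 0.99 for the class I genes and 0.85 to 0.98 for the class II genes. These are the highest of many values and are descriptions of 9 libraries. Each mean joins genes of unlike pattern, with r of -0.02 for B2m and H2-D1 and 0.32 for H2-Aa and H2-Eb1 over 9 libraries. Likeness to a mean is therefore not likeness to each of its genes.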

How the data were processed

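Libraries were prepared from total RNA with a TruSeq Stranded mRNA kit, per the labels. The submitters' processing notes name HISAT2 2.1.0 and Bowtie2 2.3.4.1, StringTie 2.1.3b, the trimming tool Trimmomatic 0.38, FastQC 0.11.7 and build mm10, and list no settings. Whether counting used strand is not known from the sources used here. The authors deposited a read count and an FPKM value per gene and library, per the file headers. Both were taken as the last 2 cells of a row, since rows differ in their number of cells, and are recorded as other units because a check by header position cannot read them. The file headers carry other library numbers than the titles, and the titles were used. No gene had a count of 0.

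Genes with the equivalent of 10 reads in a median library in at least 3 libraries and 15 reads in all were tested (21287 of 22587), which kept all 10 presentation genes. Deposited counts, scaled by trimmed means of M-values, were tested with limma-voom (limma 3.58.1, R 4.3.3) in 1 fit of 9 libraries with 6 residual degrees of freedom, two-sided, with Benjamini-Hochberg adjustment at 0.05 over all genes tested. The test was tried on simulated counts. Groups came from the titles, and no pair of libraries agreed within sampling noise. The genes, lists, tests and libraries left out were chosen with earlier results of these data known. All 10 genes are named, with at most 3 of each list by smallest p. Same-numbered DES and T.chuii libraries deviated together from their group means (correlations 0.649, 0.433 and 0.214 over genes). DES 2 and T.chuii 3, of different numbers, reached 0.558. Same-numbered libraries of CON with DES or T.chuii lay between -0.435 and 0.367. The titles state no pairing. A fit with the replicate number as a block was added, after the data were seen, for T.chuii vs DES. In it 2 of all genes passed and 0 of the 10. Gene IDs matched the RefSeq table of GRCm38.p6 for 22534 of 22587 genes, and promoter sequences are RefSeq's. Figures were drawn with matplotlib 3.10.9 in Python 3.11.15.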

Additional observations from a re-analysis of the deposited data

How the results depend on the processing

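None of the 10 genes passed the threshold under any of 19 other settings, and of 550 member estimates in them 512 kept their sign. Over all genes the count past the threshold, 0 as reported by limma-voom, was 2 for T.chuii vs CON with library quality weights, 1 for T.chuii vs DES and 1 for T.chuii vs CON without CON 2, DES 1 and T.chuii 1, and 2 for T.chuii vs DES with the replicate block in the 6 DES and T.chuii libraries. Leaving out 1 library at a time it ran from 0 to 15 for DES vs CON and from 0 to 17 for T.chuii vs CON, both maxima without DES 2. A replicate block over all 9 libraries gave 0 genes in each comparison and 0 members. The signs that turned were all of estimates that failed the test, and the cause was not tested. With library quality weights they were, for DES vs CON, B2m -0.20, H2-D1 0.031, Tap1 0.23 and Tap2 0.12, for T.chuii vs DES B2m -0.11, and for T.chuii vs CON B2m -0.31 and H2-Aa -0.22. Without CON 2, DES 1 and T.chuii 1 they were, for DES vs CON, B2m -0.12, H2-Eb1 0.015 and Tap1 0.068, for T.chuii vs DES B2m -0.32, and for T.chuii vs CON B2m -0.44 and H2-Aa -0.28. On log2(FPKM + 1) and log2(FPKM + 0.1) H2-Aa was at -0.043 and -0.046 for T.chuii vs CON. Leaving out 1 library at a time, estimates for DES vs CON ran from -0.18 to 0.44 for B2m, -0.53 to 0.019 for H2-K1, -0.51 to 0.17 for H2-D1, -0.15 to 0.008 for H2-Ab1, -0.36 to 0.063 for H2-Eb1, -0.70 to 0.37 for Tap1, -0.62 to 0.20 for Tap2 and -0.31 to 0.14 for Ciita. For T.chuii vs DES they ran from -0.25 to 0.44 for B2m, -0.44 to 0.15 for H2-K1, -0.19 to 0.064 for H2-Ab1 and -0.39 to 0.12 for Cd74. For T.chuii vs CON they ran from -0.10 to 0.57 for B2m, -0.18 to 0.17 for H2-Aa, -0.25 to 0.011 for H2-Ab1 and -0.48 to 0.037 for Cd74. Tap1, Tap2, H2-D1 and H2-Eb1 kept estimates below 0, and Ciita above 0, for T.chuii vs DES and T.chuii vs CON in each setting run. The share of all genes that kept their sign was not counted.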
